A study of Rattus norvegicus with 9 samples.

Results

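The pericentral Wnt-zonated genes are 10 genes that hepatocytes around the central vein express under Wnt control: Glul, Rhbg, Oat, Slc1a2, Tbx3, Axin2, Nkd1, Rnf43, Znrf3 and Lgr5. They were chosen by name from 40154 gene rows, and each matched 1 row. Whole-liver RNA was sequenced from 9 wild-type Sprague-Dawley rats' liver samples, aged 5 months per the labels, with 3 libraries in each of 3 groups. HepLPC livers were those of cirrhotic rats given HepLPCs, liver progenitor-like cells derived from rat hepatocytes, by injection. PBS livers were those of cirrhotic rats given phosphate-buffered saline instead. Normal livers came from rats that had neither carbon tetrachloride (CCl4), a liver toxin, nor a cell transplant. CCl4 and the saline injection therefore cannot be told apart in PBS against normal. The injected cells were from rat too, so reads of host and of injected cells cannot be told apart, and the labels give neither the dose of cells nor the interval after injection. Since the labels do not state whether replicates were separate animals, the spread behind each p-value is that between these libraries and may be partly technical.

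Wnt proteins bind Frizzled receptors with an LRP coreceptor, which frees beta-catenin from a complex that marks it for destruction, and beta-catenin then switches on genes with TCF/LEF factors. In liver, endothelial cells of the central vein secrete Wnt proteins and R-spondin, and the hepatocytes nearest to them take on a pericentral programme. Part of that programme handles nitrogen: ammonium left over by periportal urea synthesis is fixed into glutamine. Another part is feedback on the pathway itself, since Axin2, Nkd1, Rnf43 and Znrf3 are targets that restrain the signal.

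The promoters of the members are shown because TCF/LEF sites are how the pathway reaches its targets. RefSeq windows (assembly GRCr8) of 300 bases, from 250 before to 50 after a transcription start, matched 7 of the 10 members by symbol, in 9 windows, and those of Lgr5, Tbx3 and Znrf3 are not used here. Both strands were searched for CTTTGA and for the longer CTTTGAT, whose reverse complements are TCAAAG and ATCAAAG. The longer core contains the shorter, so the matches overlap. Of the 7 members 4 held both cores (Glul, Axin2, Nkd1 and Slc1a2), while among all 27457 genes with a window 17.1% held the shorter and 3.95% the longer. Rhbg is shown beside those because it had the largest fold change of all members and neither core in its window. Sequences run 5′ to 3′ on the gene's strand, and capitals mark the cores.
Glul chr13:68519250-68519549 (plus strand): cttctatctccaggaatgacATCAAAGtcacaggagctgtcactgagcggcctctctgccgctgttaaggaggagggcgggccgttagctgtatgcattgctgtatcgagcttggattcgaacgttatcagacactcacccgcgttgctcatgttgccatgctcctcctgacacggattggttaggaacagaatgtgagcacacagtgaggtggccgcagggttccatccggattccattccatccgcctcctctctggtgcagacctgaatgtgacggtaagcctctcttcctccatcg
Axin2 chr10:94398535-94398834 (plus strand): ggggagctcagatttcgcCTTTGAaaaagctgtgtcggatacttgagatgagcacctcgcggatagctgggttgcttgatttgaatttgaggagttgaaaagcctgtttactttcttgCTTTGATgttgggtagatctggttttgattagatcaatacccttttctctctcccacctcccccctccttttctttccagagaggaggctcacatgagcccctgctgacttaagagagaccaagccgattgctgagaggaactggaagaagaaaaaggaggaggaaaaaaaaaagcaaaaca
Nkd1 chr19:34722797-34723096 (minus strand): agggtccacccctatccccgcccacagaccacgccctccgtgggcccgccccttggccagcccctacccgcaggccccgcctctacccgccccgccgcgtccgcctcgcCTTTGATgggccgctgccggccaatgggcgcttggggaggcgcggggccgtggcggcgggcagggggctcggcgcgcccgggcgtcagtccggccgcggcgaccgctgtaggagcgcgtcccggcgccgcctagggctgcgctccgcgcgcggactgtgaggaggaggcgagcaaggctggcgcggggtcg
Slc1a2 chr3:109507697-109507996 (plus strand): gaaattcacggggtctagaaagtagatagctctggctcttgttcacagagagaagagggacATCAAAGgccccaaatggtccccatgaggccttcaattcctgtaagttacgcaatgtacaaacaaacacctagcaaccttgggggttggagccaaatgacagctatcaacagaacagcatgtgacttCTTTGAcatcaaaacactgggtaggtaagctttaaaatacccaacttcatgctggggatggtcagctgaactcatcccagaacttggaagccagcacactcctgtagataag
Rhbg chr2:176015100-176015399 (minus strand): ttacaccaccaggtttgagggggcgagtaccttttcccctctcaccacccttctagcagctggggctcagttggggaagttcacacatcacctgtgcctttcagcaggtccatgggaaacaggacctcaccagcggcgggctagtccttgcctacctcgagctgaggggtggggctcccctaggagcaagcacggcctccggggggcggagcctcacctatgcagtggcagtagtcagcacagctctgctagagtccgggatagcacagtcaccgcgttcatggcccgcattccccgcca
The longer core began 230 bases before the start in Glul, 132 in Axin2, 141 in Nkd1 and 189 in Slc1a2, and the shorter core occurred alone 232 bases before the start in Axin2 and 62 in Slc1a2. The other window of Glul, the other of Slc1a2, and those of Oat and Rnf43 held neither core. A match is a run of letters and not a measured binding site, and a window without one says nothing of binding elsewhere.

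Levels are RPKM, reads scaled to the depth of the library and the length of the gene, and means carry the SD over 3 libraries. A fold change is given as the difference between group means of log2(RPKM + 1), a scale that understates changes of low genes. Depth was 17.4 to 21.8 M (megareads) per library, worked out from the values. A gene was called where limma's p, adjusted by Benjamini-Hochberg, was under 0.05 among the 11124 genes that reached 1 RPKM in at least 3 libraries. Of the 10 members 9 passed that filter, Nkd1 only through its 3 PBS libraries, and Lgr5 did not. Tbx3 reached 1 RPKM in no normal library and passed through 5 HepLPC and PBS libraries. PBS replicate 1 and HepLPC replicate 2 stood apart: their deviation from the group mean correlated with gene length at a Spearman rho of -0.563 and -0.528 across 11099 genes, against -0.156 to 0.423 in the other libraries. Hepatocyte markers identified the tissue, with summed levels of 85589 to 98904 RPKM in HepLPC livers, 78374 to 87496 in PBS livers and 83765 to 101140 in normal livers, and limma called 0 of 8 in each comparison, with at most 1 at an unadjusted p under 0.05, and voom 0 of the 3 it could test. Over all tested genes limma called 11.3% in PBS against normal, 3.07% in HepLPC against PBS and 0.0809% in HepLPC against normal. In bulk liver, fewer pericentral cells and less RNA per cell cannot be told apart, and position in the lobule was not measured.

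**Figure D1:**
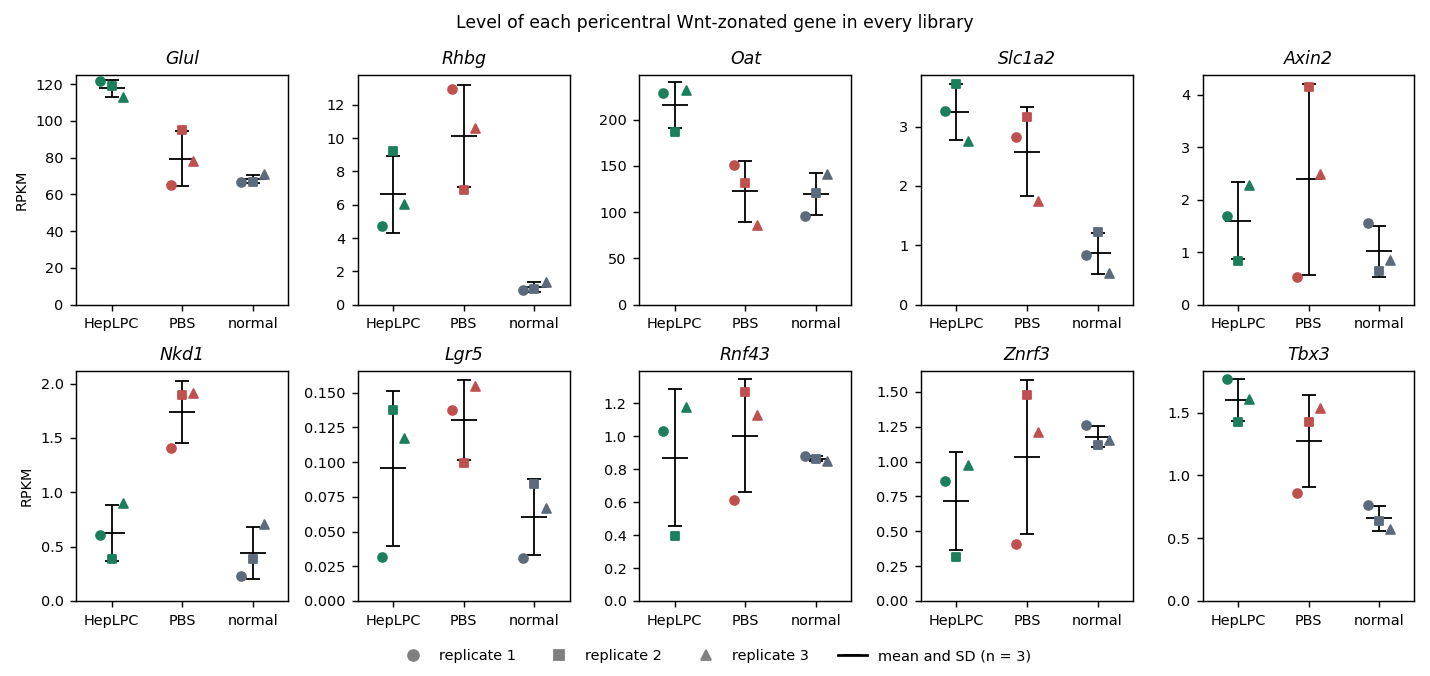
RPKM of each of the 10 genes (vertical axes, linear from 0) in HepLPC, PBS and normal livers, with 1 point per library and the mean and SD of 3 libraries. Rhbg, Slc1a2 and Tbx3 lie above normal in both cirrhotic groups, Nkd1 is high only in the PBS libraries, and Glul and Oat are highest in the HepLPC libraries.

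The members differed in pattern after the cells. Rhbg stayed above normal in HepLPC livers at a called difference, with Slc1a2 and Tbx3 also above normal in each HepLPC library but not called. Nkd1 was high in PBS livers and lower again in HepLPC livers. Glul and Oat, the most abundant members, were close to normal in PBS livers and higher in every HepLPC library than in any other library. Axin2, Rnf43 and Znrf3 had no called difference and overlapped between PBS and normal livers.

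Rhbg, a membrane channel for ammonium that marks pericentral hepatocytes, changed most. It had 4.70, 9.20 and 6.02 RPKM in HepLPC livers, 12.9, 6.88 and 10.6 in PBS livers, and 0.871, 0.930 and 1.37 in normal livers. Each cirrhotic library, with or without cells, was above each normal one, and the HepLPC and PBS libraries overlapped. Its mean was 10.1 ± 3.06 RPKM in PBS livers and 1.06 ± 0.273 in normal livers, a ratio of 9.60 and a log2 fold change of 2.41 (SE 0.26, limma adjusted p = 0.000664). In HepLPC livers the mean was 6.64 ± 2.32 RPKM, which was 6.28 times the normal mean, with a log2 fold change of 1.86 (SE 0.26, limma adjusted p = 0.0464). That p ranked 9 of the 11124 genes for HepLPC against normal, and it missed the threshold in 16 of 22 alternative analyses (adjusted p 0.0342 to 0.191). Of all tested genes 0.0449% were called higher in that comparison, and 0.0% to 0.0989% in the 22 alternatives. For Rhbg, HepLPC against PBS gave -0.55 (SE 0.26, limma adjusted p = 0.335), so a fall after the cells was not detected.

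Slc1a2, the glutamate transporter GLT-1, takes up glutamate for glutamine synthesis. Its levels were 3.26, 3.71 and 2.76 RPKM in HepLPC livers, 2.83, 3.16 and 1.74 in PBS livers, and 0.833, 1.23 and 0.525 in normal livers. All 6 cirrhotic libraries were above all normal ones, and HepLPC and PBS overlapped. PBS livers averaged 2.58 ± 0.743 RPKM against 0.861 ± 0.351 in normal livers, a log2 fold change of 0.94 (SE 0.20, limma adjusted p = 0.0163). The call was lost in 5 of 22 alternatives, by rescaling to median of ratios (limma adjusted p = 0.060), by quantile normalization (0.129), and without PBS replicate 2 (0.0552), normal replicate 1 (0.0573) or normal replicate 3 (0.0664). HepLPC livers averaged 3.24 ± 0.475 RPKM, 1.20 above normal on the log2 scale (SE 0.20, limma adjusted p = 0.0923) and 0.26 above PBS (SE 0.20, limma adjusted p = 0.556). The adjustment is made over all genes of a comparison, and in HepLPC against normal the p of Slc1a2 ranked 17 of 11124 without being called.

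Glul, glutamine synthetase, is the classic marker of the innermost pericentral hepatocytes. Libraries gave 121.7, 119.0 and 112.9 RPKM in HepLPC livers, 65.3, 95.1 and 78.1 in PBS livers, and 67.0, 66.9 and 70.9 in normal livers. Every HepLPC library was above every other library, while PBS and normal overlapped. HepLPC livers averaged 118 ± 4.55 RPKM, PBS livers 79.5 ± 14.9 and normal livers 68.3 ± 2.30. The log2 fold change was 0.58 for HepLPC against PBS (SE 0.14, limma adjusted p = 0.0648) and 0.78 for HepLPC against normal (SE 0.14, 95% interval 0.46 to 1.10, limma adjusted p = 0.114). Neither was called, although HepLPC against PBS was called after rescaling by median of ratios (0.77, limma adjusted p = 0.036), with the gene length trend removed (0.72, 0.0255) and without PBS replicate 2 (0.71, 0.0369). PBS against normal was 0.20 (SE 0.14, limma adjusted p = 0.409), close to the median of 0.184 over all genes, and turned to -0.04 after that rescaling.

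Oat, ornithine aminotransferase, makes glutamate from ornithine in the same cells. It stood at 229, 187 and 232 RPKM in HepLPC livers, 151, 131 and 85.7 in PBS livers, and 95.6, 121 and 141 in normal livers. As with Glul, the HepLPC libraries lay above all others and PBS overlapped normal. Means were 216 ± 25.1 RPKM in HepLPC livers, 122 ± 33.3 in PBS livers and 119 ± 22.6 in normal livers. The difference was 0.84 on the log2 scale for HepLPC against PBS (SE 0.22, limma adjusted p = 0.0828) and 0.86 for HepLPC against normal (SE 0.22, limma adjusted p = 0.268). PBS against normal was 0.02 (SE 0.22, limma adjusted p = 0.970), with a sign that changed between analyses.

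Tbx3, a transcription factor and beta-catenin target, was ordered HepLPC, PBS, normal by mean. It had 1.77, 1.43 and 1.61 RPKM in HepLPC livers, 0.856, 1.43 and 1.54 in PBS livers, and 0.765, 0.633 and 0.575 in normal livers. Both cirrhotic groups lay wholly above normal, and they overlapped each other. The log2 fold change was 0.65 for HepLPC against normal (SE 0.15, limma adjusted p = 0.215), 0.44 for PBS against normal (SE 0.15, limma adjusted p = 0.0849) and 0.21 for HepLPC against PBS (SE 0.15, limma adjusted p = 0.534). Without PBS replicate 1 and HepLPC replicate 2, the 2 libraries with the length trend, PBS against normal was 0.58 (limma adjusted p = 0.012), and without PBS replicate 1 alone the adjusted p was 0.027. Voom on recovered reads also called it (adjusted p = 0.0454), while 19 of 22 alternatives did not (adjusted p up to 0.485). With the length trend removed it was 0.27 (limma adjusted p = 0.146).

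Nkd1, an inhibitor that binds Dishevelled and is itself induced by Wnt, was high in PBS livers alone. Its values were 0.603, 0.386 and 0.897 RPKM in HepLPC livers, 1.41, 1.90 and 1.91 in PBS livers, and 0.234, 0.385 and 0.706 in normal livers. PBS livers lay above both other groups, which overlapped. PBS livers averaged 1.74 ± 0.285 RPKM against 0.442 ± 0.241 in normal livers, a log2 fold change of 0.93 (SE 0.17, limma adjusted p = 0.00865). HepLPC livers averaged 0.629 ± 0.257 RPKM, which was 0.76 below PBS livers on the log2 scale (-0.76, SE 0.17, limma adjusted p = 0.0495) and 0.18 above normal livers (SE 0.17, limma adjusted p = 0.818). Because Nkd1 passed the filter only through the group where it was high, the fit of all 25034 genes with no filter bears on it as well: the limma adjusted p was 0.0185 in PBS against normal, while HepLPC against PBS gave 0.0781. The rise in PBS livers was called in 22 of 22 alternatives. The difference of HepLPC from PBS lost its call in 18 of 22 (adjusted p 0.0346 to 0.188), always with the same sign.

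Axin2, a scaffold of the destruction complex and a widely used readout of Wnt activity, was scattered. It had 1.69, 0.828 and 2.28 RPKM in HepLPC livers, 0.521, 4.15 and 2.50 in PBS livers, and 1.56, 0.632 and 0.851 in normal livers. PBS livers held both the lowest and the highest value of the 9 libraries, and all groups overlapped. The log2 fold change of PBS against normal was 0.61 (SE 0.41, limma adjusted p = 0.377), and without PBS replicate 1 and HepLPC replicate 2 it was 1.10 (limma adjusted p = 0.018). That was the only call in 22 alternatives (adjusted p up to 0.787). Without PBS replicate 1 alone the limma adjusted p was 0.0505, and with the length trend removed the difference was 0.41 (0.544). HepLPC against PBS gave -0.25 (SE 0.41, limma adjusted p = 0.772), and HepLPC against normal 0.35 (SE 0.41, limma adjusted p = 0.843).

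Rnf43 and Znrf3 are ubiquitin ligases that remove Frizzled from the cell surface. Rnf43 had 1.03, 0.396 and 1.18 RPKM in HepLPC livers, 0.613, 1.27 and 1.13 in PBS livers, and 0.882, 0.865 and 0.848 in normal livers. Znrf3 had 0.861, 0.314 and 0.979 RPKM in HepLPC livers, 0.410, 1.48 and 1.21 in PBS livers, and 1.26, 1.12 and 1.15 in normal livers. The normal libraries were tightly grouped for both genes, and the lowest cirrhotic values of both were HepLPC replicate 2 and PBS replicate 1. Every HepLPC library had less Znrf3 than every normal one, but the difference of -0.36 was not called (SE 0.23, limma adjusted p = 0.703). PBS against normal was 0.09 for Rnf43 (SE 0.19, limma adjusted p = 0.807) and -0.14 for Znrf3 (SE 0.23, limma adjusted p = 0.733), and both signs turned in some analyses.

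Lgr5, a receptor for R-spondins, was near the limit of detection. It had 0.0317, 0.137 and 0.117 RPKM in HepLPC livers, 0.137, 0.0990 and 0.155 in PBS livers, and 0.0307, 0.0843 and 0.0666 in normal livers, from 3 to 13, 10 to 15 and 3 to 9 reads per library in that order of groups. The PBS libraries lay just above the normal ones, with a difference of 0.092 in mean log2(RPKM + 1) and an exact 2-sided permutation p of 0.1, the smallest that 3 against 3 can give. HepLPC against PBS (exact permutation p = 0.5) and HepLPC against normal (exact permutation p = 0.4) overlapped.

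Ranked by mean RPKM in normal livers, Oat at 119 ± 22.6 and Glul at 68.3 ± 2.30 stood far above the rest. Znrf3, Rhbg, Axin2, Rnf43 and Slc1a2 followed between 1.18 and 0.861 RPKM, then Tbx3 at 0.658 and Nkd1 at 0.442, and the libraries of each neighbouring pair in that run overlapped. Lgr5 was lowest at 0.0606. In both cirrhotic groups Rhbg came next after Oat and Glul, at 6.64 ± 2.32 RPKM in HepLPC livers and 10.1 ± 3.06 in PBS livers, with every library above those of the next gene by mean, Slc1a2.

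Set against all genes, 3 of 9 members (Rhbg, Slc1a2 and Nkd1, the last admitted only by its PBS level) rose in PBS against normal, where 10.4% of all tested genes were called higher, and 0 fell, where 0.944% were called lower. A further measure is overlap: 4 of the 9 tested members lay wholly above normal in PBS livers, as did 32.7% of all genes, and 0 wholly below, as did 4.92%. For HepLPC against PBS, 1 of 9 was called lower (Nkd1) against 2.93% of all genes, and 0 higher against 0.135%. Glul and Oat lay wholly above PBS, as did 2.79% of genes, and Nkd1 wholly below, as did 15.6%. Nkd1 was tested only because it was high in PBS livers, so its place below PBS is no independent result. With no filter its call in HepLPC against PBS was lost (limma adjusted p = 0.0781). For HepLPC against normal, 1 of 9 was called higher (Rhbg) against 0.0449% of all genes, and 0 lower against 0.036%. Of the 9, 5 lay wholly above normal (Glul, Rhbg, Oat, Slc1a2 and Tbx3), as did 12.3% of genes, and 1 wholly below (Znrf3), as did 3.51%. Tbx3 passed the filter only through HepLPC and PBS libraries, so its place above normal, here and in PBS livers, is no independent result. At an unadjusted limma p under 0.05, 4 of 9 members differed in PBS against normal, 3 in HepLPC against PBS and 5 in HepLPC against normal, where 27.3%, 16.1% and 9.31% of all genes did in the same order of comparisons. Called by voom on recovered reads were 4, 0 and 0 members, and 12.2%, 3.0% and 0.0% of its 16567 genes. The median log2 fold change of the members was 0.44 for PBS against normal, where all genes had 0.184. It was -0.11 for HepLPC against PBS, where all genes had -0.145, and 0.65 for HepLPC against normal, where all genes had 0.05. PBS against normal shares its PBS libraries with HepLPC against PBS and its normal libraries with HepLPC against normal, so these values are not independent.

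**Figure D2:**
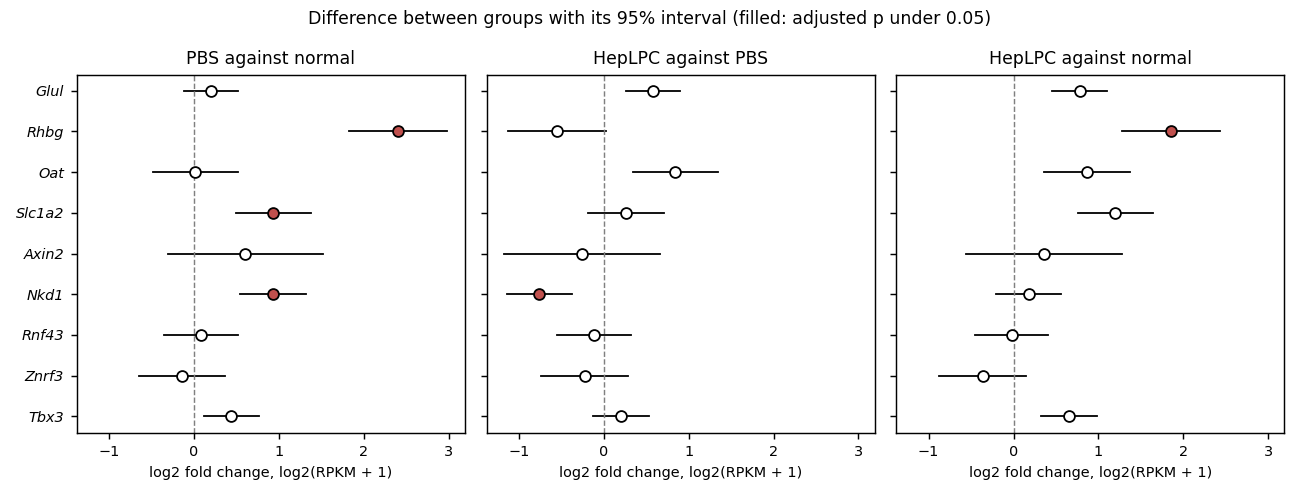
Log2 fold change with its 95% interval (horizontal axes, log2(RPKM + 1) scale) for the 9 tested genes in PBS against normal, HepLPC against PBS and HepLPC against normal; filled points were called at an adjusted p under 0.05. Rhbg, Slc1a2 and Nkd1 are filled in the left panel, Nkd1 at -0.76 in the middle and Rhbg at 1.86 in the right.

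In the libraries with the length trend, the members deviated in shares near those of all genes. In both PBS replicate 1 and HepLPC replicate 2, 5 of the 9 tested members were below their group mean (Axin2, Nkd1, Rnf43, Znrf3 and Tbx3), as were 50.7% of all genes, and Rhbg and Slc1a2 were above it, as were 27.4%. Axin2 deviated by -0.99 and -0.47 in log2(RPKM + 1), Znrf3 by -0.49 and -0.36, and Rhbg by 0.36 and 0.46, with PBS replicate 1 given first. With both libraries left out, 5 members were called higher in PBS against normal (Axin2 and Tbx3 joining Rhbg, Nkd1 and Slc1a2), while the share of all genes called higher was 26.0%. For HepLPC against PBS 0 were then called, where 0.234% of all genes were called higher and 3.27% lower, with Nkd1 at -0.74 (limma adjusted p = 0.072) and Oat at 1.11 (limma adjusted p = 0.051). For HepLPC against normal Rhbg was called at 1.63 (limma adjusted p = 0.0497), where 0.0989% of all genes were called higher. With the length trend removed and all 9 libraries kept, PBS against normal was 0.41 for Axin2 (limma adjusted p = 0.544) and 0.27 for Tbx3 (0.146). Rhbg (2.19), Nkd1 (0.75) and Slc1a2 (0.73) stayed called in that fit, where 6.43% of genes were called higher. Whether the trend caused the deviations of PBS replicate 1 and HepLPC replicate 2 was not tested.

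**Figure D3:**
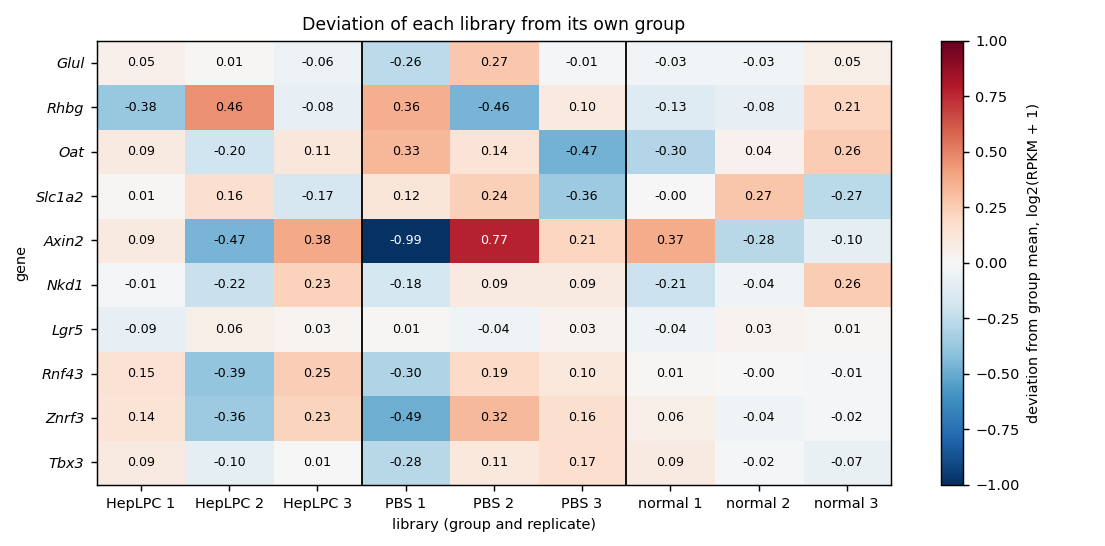
Deviation of each library from the mean of its own group, in log2(RPKM + 1), for the 10 genes (rows) in the 9 libraries (columns), with blue below and red above the group mean. PBS replicate 1 reaches -0.99 and HepLPC replicate 2 -0.47 for Axin2, and both are blue for Nkd1, Rnf43, Znrf3 and Tbx3.

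Upstream of the members, Wnt ligands were low in whole liver. Of 19 ligand genes 1 passed the filter, Wnt4, and Wnt1, Wnt8a, Wnt8b and Wnt10b were listed at 0 in all libraries. Wnt4 averaged 1.64 ± 0.278 RPKM in PBS livers and 0.301 ± 0.0311 in normal livers (log2 fold change 1.02, limma adjusted p = 0.0015). In HepLPC livers it averaged 0.745 ± 0.153, below PBS (-0.60, limma adjusted p = 0.0421), a call that voom on recovered reads did not make. Wnt4 reached 1 RPKM only in its 3 PBS libraries and was tested because it was high there. With no filter its limma adjusted p was 0.00389 in PBS against normal, while HepLPC against PBS gave 0.056, so the second call was lost. Wnt2 and Wnt9b, the ligands known from central vein and sinusoidal endothelium, were below the filter and are given for that role, chosen after their values were seen. Wnt2 averaged 0.602 ± 0.203 RPKM in HepLPC livers, 0.798 ± 0.0499 in PBS livers and 0.433 ± 0.0942 in normal livers, and Wnt9b 0.237 ± 0.0835, 0.390 ± 0.103 and 0.136 ± 0.00937 in the same order. For both, every PBS library was above every normal one (exact permutation p = 0.1, the smallest possible), as held for 32.7% of tested genes. Every HepLPC library was above every normal one for Wnt9b (exact permutation p = 0.1), as held for 12.3% of tested genes, while Wnt2 overlapped (exact permutation p = 0.3).

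Genes that release or amplify Wnt moved in part. Porcn, which attaches the lipid that Wnt proteins need, averaged 1.22 ± 0.167 RPKM in PBS livers and 0.454 ± 0.0567 in normal livers (0.61, limma adjusted p = 0.0116). It fell to 0.450 ± 0.0827 RPKM in HepLPC livers against the PBS level (-0.61, limma adjusted p = 0.0276). Porcn too passed the filter only through its PBS libraries, and with no filter the limma adjusted p was 0.0114 and 0.0254 for those comparisons. Wls, the carrier that brings Wnt proteins to the surface, averaged 4.80 ± 1.68 RPKM in PBS livers and 1.80 ± 0.156 in normal livers (1.01, limma adjusted p = 0.0143). Rspo3, the R-spondin of the central vein, averaged 1.18 RPKM in HepLPC livers, 0.935 in PBS livers and 0.989 in normal livers, with no call in any comparison. Of 7 tested Wnt receptor genes and 17 tested genes of the destruction complex and its effectors, limma called 0 in each of the 3 comparisons. Of all tested genes it called 11.3% in PBS against normal, 3.07% in HepLPC against PBS and 0.0809% in HepLPC against normal. An unadjusted limma p under 0.05 was held by 27.3%, 16.1% and 9.31% of all genes in that order. It was held by 0 of the receptors and at most 1 of the other 17 in each comparison. Voom on recovered reads called 0 receptors and, in PBS against normal, 12.2% of its genes and 1 of the 17. Among them Lrp5, a coreceptor, averaged 17.3 ± 6.39 RPKM in HepLPC livers, 15.6 ± 3.88 in PBS livers and 22.0 ± 3.58 in normal livers, and Ctnnb1, which encodes beta-catenin, averaged 23.1 ± 3.56, 26.2 ± 2.08 and 21.5 ± 1.27 in the same order.

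Secreted inhibitors went different ways. Sfrp1, which binds Wnt proteins, averaged 1.74 ± 0.591 RPKM in PBS livers and 0.0645 ± 0.0377 in normal livers (1.34, limma adjusted p = 0.00119), and 0.193 ± 0.133 in HepLPC livers, below PBS (-1.18, limma adjusted p = 0.00773). Sfrp1 passed the filter only through its PBS libraries, and with no filter the limma adjusted p was 0.00313 in PBS against normal, while HepLPC against PBS gave 0.0112. Notum, an enzyme that removes the lipid from Wnt proteins, averaged 5.60 ± 1.44 RPKM in PBS livers and 12.1 ± 1.45 in normal livers (-1.01, limma adjusted p = 0.0125). In HepLPC livers Notum averaged 9.45 ± 2.02 RPKM, which passed the test against neither PBS (limma adjusted p = 0.12) nor normal livers (limma adjusted p = 0.682).

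**Figure D4:**
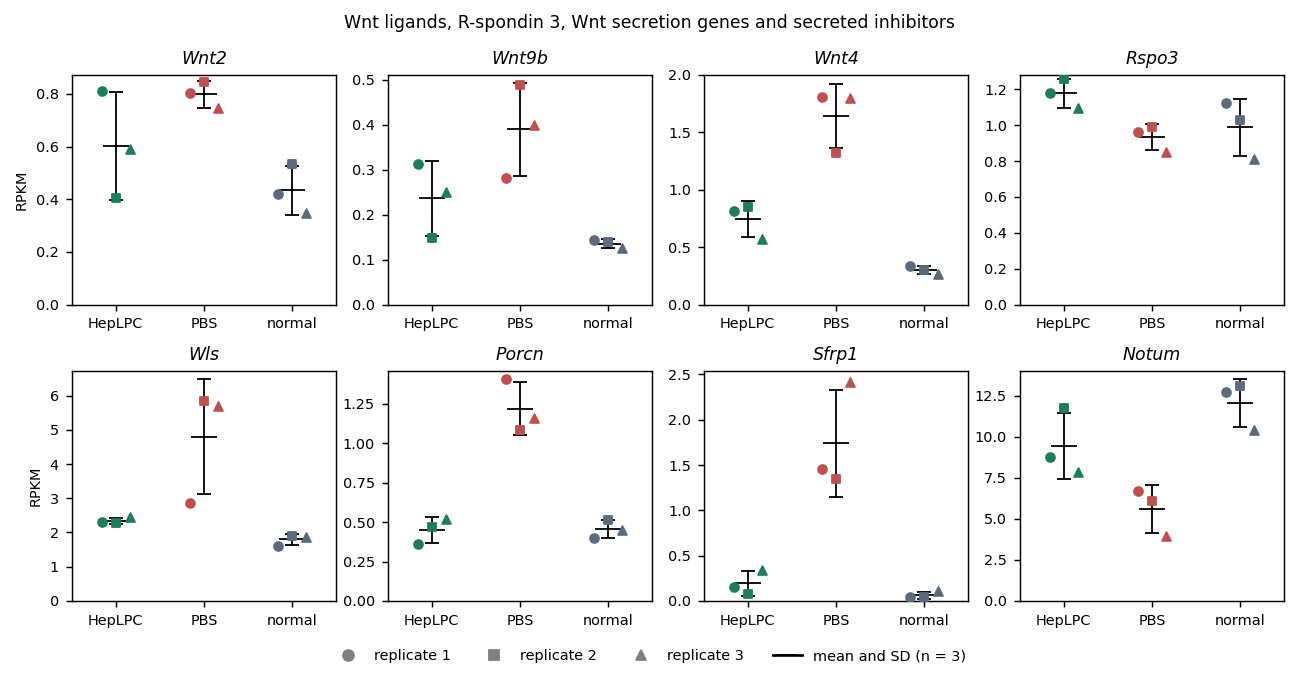
RPKM (vertical axes, linear from 0) of 8 genes that act upstream of the members, in HepLPC, PBS and normal livers, with 1 point per library and the mean and SD of 3 libraries. Wnt4, Porcn and Sfrp1 are high in the 3 PBS libraries and lower in the HepLPC libraries, while Notum is lowest in the PBS libraries.

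Other Wnt targets and other pericentral genes were called in small numbers, and their difference from the members was not tested. Of all tested genes, 10.4% were called higher in PBS against normal and 2.93% lower in HepLPC against PBS. Of 7 other Wnt targets tested, 2 rose in PBS against normal: Cd44, a hyaluronan receptor, by 1.98 (limma adjusted p = 0.00675) and Zfp703, a transcriptional repressor, by 0.89 (limma adjusted p = 0.0158). Their median log2 fold change was 0.87 for PBS against normal, -0.78 for HepLPC against PBS and 0.11 for HepLPC against normal. Cd44 was also lower in HepLPC than in PBS livers (-1.65, limma adjusted p = 0.0382). It passed the filter only through its PBS libraries, and with no filter the limma adjusted p was 0.0191 in PBS against normal, while HepLPC against PBS gave 0.0767, which ended the second call. Of 15 other pericentral hepatocyte genes, with a median of 0.33, 2 rose in PBS livers: Por, the electron donor of cytochromes P450, by 0.83 (limma adjusted p = 0.0172) and Cyp7a1, which starts the conversion of cholesterol to bile acids, by 2.18 (limma adjusted p = 0.0338). Nr1i3, the nuclear receptor CAR, was lower in HepLPC than in PBS livers (-1.09, limma adjusted p = 0.0251). Cyp2e1, which activates CCl4, averaged 1008 ± 137 RPKM in HepLPC livers and 1528 ± 282 in normal livers, a difference that was not called (-0.59, limma adjusted p = 0.338). In HepLPC against normal, limma and voom called 0 of these 15 genes, 6 had an unadjusted limma p under 0.05, and their median was 0.12. Of all genes limma called 0.0809% there and voom 0.0%, 9.31% had an unadjusted limma p under 0.05, and the median was 0.05.

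Periportal genes, the opposite pole of the lobule, had a median of -0.22 over 16 tested genes in PBS against normal, with 2 lower and 0 higher. All tested genes had a median of 0.184 there, with 0.944% called lower and 10.4% higher. Hsd17b13, a lipid droplet protein, averaged 104 ± 9.29 RPKM in PBS livers and 222 ± 26.6 in normal livers (-1.08, limma adjusted p = 0.00134), and was higher in HepLPC than in PBS livers (0.78, limma adjusted p = 0.0185). Cyp2f4 fell by 0.62 on the log2 scale in PBS livers (limma adjusted p = 0.00702).

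Among 15 other tested genes of glutamate, ornithine and ammonium handling, 3 rose and 1 fell in PBS against normal. Of all tested genes, 10.4% were called higher there and 0.944% lower. Pycr1, which makes proline, averaged 3.89 ± 1.19 RPKM in PBS livers and 0.555 ± 0.140 in normal livers (1.63, limma adjusted p = 0.000967). In HepLPC livers Pycr1 averaged 0.951 ± 0.227, below PBS (-1.30, limma adjusted p = 0.00802). Odc1, which makes putrescine from ornithine, rose by 0.90 (limma adjusted p = 0.0105), and the amino acid transporter Slc1a4 by 1.03 (limma adjusted p = 0.0288). The amino acid transporter Slc38a4 fell by 0.74 on the log2 scale (limma adjusted p = 0.0151). Pycr1 and Slc1a4 stayed under 1 RPKM in every normal library and passed the filter only through cirrhotic libraries. In HepLPC against normal, limma and voom called 0 of the 15, and 4 had an unadjusted limma p under 0.05. Of all genes limma called 0.0809% there and voom 0.0%, and 9.31% had an unadjusted limma p under 0.05.

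Markers of other liver cells moved with the groups to different degrees. The shares of all tested genes were 10.4% called higher in PBS against normal and 2.93% called lower in HepLPC against PBS. In HepLPC against normal limma called 0.0809% in either direction and voom 0.0%. An unadjusted limma p under 0.05 was held by 16.1% in HepLPC against PBS and 9.31% in HepLPC against normal. Cholangiocyte markers summed to 14.5 to 27.2 RPKM in HepLPC livers, 56.8 to 191 in PBS livers and 13.9 to 16.4 in normal livers, and 7 of 8 tested were higher in PBS against normal and 7 lower in HepLPC against PBS. Of those, Sox9, Prom1 and Cftr passed the filter only through their PBS libraries. Stellate cell and myofibroblast markers summed to 60.3 to 68.8, 86.5 to 135 and 30.7 to 37.1 RPKM in the same order of groups, with 5 of 10 higher in PBS against normal and 3 lower in HepLPC against PBS. In HepLPC against normal 0 of these 10 were called by limma or voom, and 6 had an unadjusted limma p under 0.05. Macrophage markers summed to 157 to 228, 289 to 390 and 139 to 180, with 3 of 10 higher in PBS against normal and 3 lower in HepLPC against PBS. Endothelial markers, a list for liver endothelium as a whole and not for the central vein alone, summed to 81.0 to 99.2, 95.8 to 116 and 82.2 to 95.8, with 2 of 11 higher in PBS against normal. Proliferation markers summed to 7.93 to 12.1, 13.6 to 19.8 and 2.38 to 4.48, with 6 of 6 higher in PBS against normal and 0 in HepLPC against PBS or HepLPC against normal, where 4 and 6 had an unadjusted limma p under 0.05 and voom called 1 and 0. Of these, Mki67, Top2a, Cdk1, Ccnb1 and Ccna2 stayed under 1 RPKM in every normal library and passed the filter only through cirrhotic libraries. The same held for the markers Krt19, Cd24 and Col1a1. No listed marker was at 0 in all libraries, and the part of these cells in the values of Nkd1, Wnt4, Sfrp1 or the other genes was not tested.

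Likeness of pattern was measured as the root mean square (RMS) difference between centred log2(RPKM + 1) profiles over the 9 libraries, a description with no test. Rnf43 and Znrf3 were the closest pair of members, at 0.164, and Glul and Tbx3 the next, at 0.190. Among all tested genes, Glul, whose own profile has an RMS of 0.355, was closest to Ccl19 (0.189), Tbx3 (0.190) and Enpp2 (0.197). Rhbg, with an RMS of 1.07, was closest to Tmed3 (0.299), Cdk1 (0.334), Stmn1 (0.367) and Rrm2 (0.413). Cdk1 and Rrm2 are genes of the cell cycle. Axin2, with an RMS of 0.555, was closest to Akap5 (0.184) and S1pr2 (0.193).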

How the data were processed

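The deposited values are RPKM per gene row, made by the authors and named so per the file headers, in 40154 rows for each of 9 libraries. HISAT2, StringTie and hg19, a human build, are named in the submitters' processing notes, although the rows carry rat symbols. The build behind the values is therefore uncertain, and the only coordinates given are those of RefSeq promoter windows in GRCr8. Depth was worked out from the steps in the values: whole reads came out for 20932 genes, 99.9% of the 20959 that were above 0 in at least 3 libraries.

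Differences were tested with limma 3.58.1 in R 4.3.3 (group term, trended prior, 2-sided, 6 residual degrees of freedom) on log2(RPKM + 1) for the 11124 genes that reached 1 RPKM in at least 3 libraries. Lgr5, below that minimum, had an exact permutation test. The fit was tested on simulated data. The members, the 15 gene lists and the tests were chosen with earlier results of these data known. Named genes were up to 4 called members of each list, or otherwise its most abundant. Of 198 listed genes, Dkk1, Axin1 and Tnks2 matched no row. Alternatives were 20 planned settings and 2 chosen after seeing the data, gene length trend removal and voom on recovered reads.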

Additional observations from a re-analysis of the deposited data

How the results depend on the processing

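The rises of Rhbg and Nkd1 in PBS against normal were called in 22 of 22 alternatives. The 3 members called in that comparison became 5 without PBS replicate 1 and HepLPC replicate 2, and 2 to 4 when single replicates were left out. The share of all genes called higher there was 10.4%, then 26.0% without both libraries and 4.73% to 14.8% without single replicates. The 1 member called in HepLPC against PBS was Nkd1, lower. In its place Glul, higher, was the 1 called with median of ratios, with the length trend removed and without PBS replicate 2. Of all genes 0.189%, 0.45% and 0.171% were called higher in those settings, in that order. The count became 0 with a pseudocount of 0.1 or 0.5, no filter, quantile normalization, TPM scaling, only the 2 groups compared, without PBS replicate 1 and HepLPC replicate 2, or voom. In those settings 0.737% to 3.27% of all genes were called lower and 0.036% to 0.288% higher. The count was 0 to 1 when single replicates were left out, where 0.809% to 3.43% of all genes were called lower against 2.93%. The 1 called in HepLPC against normal, Rhbg, became 0 with no filter, a filter of 0.1 RPKM, median of ratios, quantile normalization, only the 2 groups compared, length trend removal, or voom. In those settings 0.0% to 0.0539% of all genes were called higher, against 0.0449% before. The count was 0 to 1 when single replicates were left out, where 0.0% to 0.0899% of all genes were called higher. Replicate numbers did not pair the libraries: correlations of deviations ran from -0.41 to 0.31 between libraries of the same number. Between libraries of different numbers they ran from -0.47 to 0.61, the highest for HepLPC replicate 2 with PBS replicate 1. A replicate block called 3 members in PBS against normal, where 6.5% of all genes were called higher, and 0 in each of the other comparisons. With that block 1.74% of all genes were called lower and 0.036% higher in HepLPC against PBS, and 0.0% higher in HepLPC against normal.

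Median of ratios moved the median of all genes in PBS against normal from 0.184 to -0.009, with 5.09% of genes called higher and 1.94% lower. The log2 fold change of PBS against normal reversed for Glul (-0.039 with median of ratios, -0.0082 with the length trend removed). For Oat it reversed to -0.22 with median of ratios, -0.030 with quantile normalization, -0.19 with the length trend removed and -0.15 without both libraries, and ran from -0.15 to 0.25 when single replicates were left out. For Rnf43 it reversed to -0.032, -0.21 and -0.064 under those 3 scalings, and ran from -0.0081 to 0.24 when libraries were left out. For Znrf3 that range was -0.30 to 0.10, its upper end without PBS replicate 1. HepLPC against PBS reversed for Axin2 (0.013 with quantile normalization, and -0.75 to 0.13 when single replicates were left out). It also reversed for Rnf43 (0.13 with quantile normalization, 0.10 with the length trend removed, -0.26 to 0.085 when single replicates were left out) and for Znrf3 (0.017 with quantile normalization). HepLPC against normal reversed for Rnf43 (0.038 with the length trend removed, -0.15 to 0.17 when libraries were left out). None of these had been called, and the cause was not tested. Members under 2 RPKM rest on few reads, which limits Lgr5 most.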
